A study of Homo sapiens with 4 samples.

Results

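The 17300 summits described here lie in annotated 3′-UTRs of protein-coding mRNAs. They were taken from 3 HITS-CLIP peak lists of Star-PAP, which hold 1031599 summits in all and 965423 on chromosomes 1 to 22. A summit, the 1-bp position of highest signal in a peak, was a member when it fell in a 3′-UTR of a protein-coding transcript and in no coding sequence. The control list gave 3827 members of 382958 autosomal summits, the siStar-PAP list 6922 of 306360, and the siRBM10 list 6551 of 276105.

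All lists came from HEK293, an established human embryonic kidney cell line, after UV crosslinking and a pull-down with an antibody to Star-PAP. The control cells carried no depletion of either protein as far as the labels say, the siStar-PAP cells were depleted of Star-PAP itself, and the siRBM10 cells were depleted of RBM10, an RNA-binding coregulator of Star-PAP. The labels give siRNA transfection and harvest after 48 h for every sample, and they do not say whether the control cells received a control siRNA. Peaks were called by the authors in each library against an IgG pull-down at a p-value of 0.05, and the score of a summit is the −log10 of that p-value. Each condition had 1 library, so differences between conditions have no replicate check, no test was made between them, and intervals cover counting error only. The lists carry no strand, peak width or read number, so the depth behind a summit is unknown and that of the libraries is known only from the approximate read totals in the study's text, and a summit was placed on the strand of the gene whose UTR it fell in.

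The 3′-UTR runs from the stop codon to the site where the mRNA is cleaved and polyadenylated. Cleavage is directed by a polyadenylation (PA) signal, mostly AAUAAA or AUUAAA, a short distance upstream of the cleavage site, which CPSF recognises while CstF reads U/GU-rich sequence downstream. Star-PAP, encoded by TUT1, is a nuclear non-canonical poly(A) polymerase that adds the tail to selected mRNAs, and it has been described as binding upstream of the PA signal of its targets. The annotated transcript end is therefore the landmark against which the positions of these summits were read.

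The sequences shown first are those of the IGF2 site, the UTR site with summits of all lists whose lowest score was highest, and those of the other control summits of highest score that share its sequence. Each window covers 29 nt centred on the summit, on the strand of the mRNA and with T for U, and comes from the GRCh37 (hg19) reference. Capitals mark runs of at least 3 CA or AC units. The IGF2 windows are chr11:2152911-2152939 (control), chr11:2153014-2153042 (siStar-PAP) and chr11:2152875-2152903 (siRBM10), all on the minus strand, the ALG12 window is chr22:50295870-50295898 on the minus strand, and the MLYCD window is chr16:83952959-83952987 on the plus strand.
IGF2, control summit: ACACACagCACACACACAaacacagcaca
IGF2, siStar-PAP summit: tgCACACACAgCACACACActagCACACA
IGF2, siRBM10 summit: acacagcacacgCACACACAgCACACACA
ALG12, control summit: cagtgcacacgtgCACACAccatgcatac
MLYCD, control summit: agaACACACACagtgcacaggagaacaca

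The next windows are the summits of highest score in each list that lie in the last 100 nt of a transcript and hold a PA signal, which is in capitals. They show a PA signal next to a summit, which most summits near an annotated end did not have. SPAG17 is at chr1:118496210-118496238, VCPKMT at chr14:50575363-50575391 and CNR2 at chr1:24197026-24197054, all on the minus strand, and their summits lie 11, 22 and 35 nt before the transcript end with scores of 3.36, 4.70 and 4.22.
SPAG17, control summit: atacagAATAAAacttttactaaaaagtt
VCPKMT, siStar-PAP summit: tacattttatgtgttaaAATAAAcattgt
CNR2, siRBM10 summit: gacaagctctgtaacATTAAAgaccacta

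The last windows belong to summits with summits of other lists nearby, 3 from the sites of all lists whose lowest score was high and CEBPG with siRBM10 and siStar-PAP summits at the same position, and none holds a PA signal. TIGAR is at chr12:4462998-4463026 on the plus strand, PSMD12 at chr17:65335377-65335405 on the minus strand, ZNF283 at chr19:44342216-44342244 on the plus strand and CEBPG at chr19:33872264-33872292 on the plus strand.
TIGAR, control summit: ggtgctctgcgggcagggaaggcggggtg
PSMD12, control summit: aaaaaaatacaaaaatttgccgggcgtgg
ZNF283, control summit: agctattttgtatagtgttcctgaatgtg
CEBPG, siRBM10 summit: gcaaagccattcttaagagtcgtgaggtc

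Summits were fewer in 3′-UTRs than along the autosomes in the control list, and more frequent there in both depletion lists. The 3′-UTR bases outside coding sequence sum to 37.5 Mb in 18738 genes, which is 1.40% of the determined autosomal bases. The share of autosomal summits in them was 0.999% (95% Wilson interval 0.968 to 1.03) in control, 2.26% (2.21 to 2.31) in siStar-PAP and 2.37% (2.32 to 2.43) in siRBM10. The control share was thus below the share of bases and the depletion shares were above it, although the control list was the longest. Per Mb of 3′-UTR there were 102 summits in control, 184 in siStar-PAP and 174 in siRBM10, beside 143, 114 and 103 per Mb over all autosomes. A 3′-UTR summit was found in 2910 genes of the control list (15.5% of the genes with a 3′-UTR), in 4863 of the siStar-PAP list (26.0%) and in 4714 of the siRBM10 list (25.2%).

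The members of the control list were mostly summits at the bottom of its score range. The commonest score among the control members was 1.33, held by 61.5% of them, whereas the commonest scores of 2.92 in siStar-PAP and 3.25 in siRBM10 were held by 13.8% and 13.9%. The highest score of a member was 25.7 in control, 12.8 in siStar-PAP and 15.2 in siRBM10. A score also reflects how deeply its library and the IgG library were sequenced, so scores rank summits within a list and are not compared between lists.

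Summits were scarcer at the annotated transcript ends than over the rest of the same UTRs in every list. Distances were counted in spliced nt along the canonical transcript where it holds the summit, which was the case for 83.6% to 87.4% of the summits used. Summits in UTRs of more than 1 gene or of transcripts with an incomplete 3′ end were left out, which left 3778, 6809 and 6430 summits. Each share was set beside the share of all positions of the same UTRs, with each gene weighted by its number of summits, so that the genes are the same on both sides. The positions of a gene were pooled over the UTRs of all its transcripts. UTR length can therefore differ between the sides where a gene has UTRs of different length. In control, 10.0% of the summits (9.11 to 11.0) lay within 250 nt of the end, against 12.6% of the positions in the same UTRs, a ratio of 0.799. In siStar-PAP the share was 10.9% (10.2 to 11.7) against 14.8%, a ratio of 0.736. In siRBM10 it was 11.3% (10.6 to 12.1) against 15.0%, a ratio of 0.752. The interval of each share lay below the share of positions. The shares of the siStar-PAP and siRBM10 lists were not below that of control, where the share of positions was also lower. The ratios of these depletion lists were lower than that of control, with overlapping intervals (0.687 to 0.787 and 0.702 to 0.805, against 0.726 to 0.879). With the weighting by GC content described below they were higher than that of control. Summits of 1 gene share a UTR, so the intervals treat as independent what may not be.

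Without regard to base composition the ratios were lowest in the last 100 nt, where PA signals lie. These held 4.13% of control summits against 5.38% of positions (ratio 0.768), 3.89% against 6.35% in siStar-PAP (0.613), and 3.73% against 6.40% in siRBM10 (0.583). Between 251 and 500 nt from the end the ratios were 0.987, 1.0 and 0.920. The median distance to the end was 1457 nt in control, 1323 nt in siStar-PAP and 1311 nt in siRBM10. ZNF283, a zinc-finger gene whose summits of all lists are given further on, had its control summit 2 nt before the end of an 881-nt UTR.

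**Figure D1:**
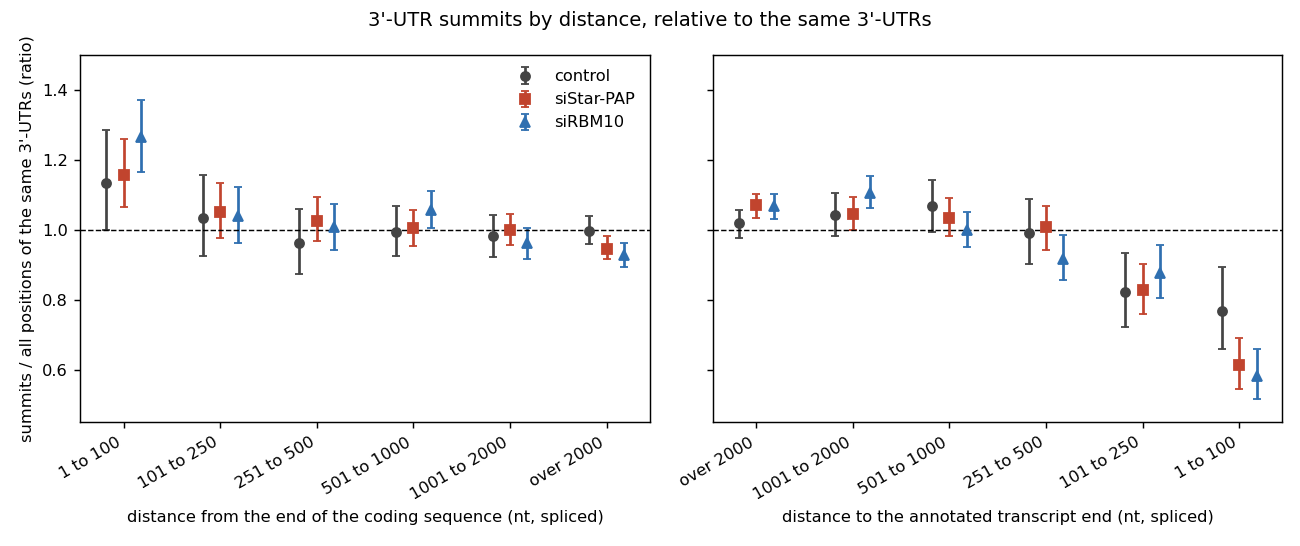
Ratio of the share of 3′-UTR summits to the share of all positions of the same UTRs (y axis, dashed line at 1) by spliced distance from the end of the coding sequence (left) and to the annotated transcript end (right), in nt, for each list, with bars for 95% Wilson intervals. In the last 100 nt all points lie below 1, at 0.768 in control, 0.613 in siStar-PAP and 0.583 in siRBM10, and in the first 100 nt they lie above it.

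The control shortfall depended on where in the peak the summit was taken to be. With every summit moved 250 nt upstream, a shift within the fragment size of 500 used in the peak calling, the share of control summits in the last 250 nt was 12.5% against 12.6% of positions, a ratio of 0.994. The ratios were then 0.850 in siStar-PAP and 0.800 in siRBM10. With distance counted to the nearest end of any protein-coding transcript of the gene, which admits internal ends, they were 0.847, 0.831 and 0.846.

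Base composition moved with this result in the depletion lists. When each position of the same UTRs was weighted by the density of members at its GC content, a comparison chosen after the data were seen, the ratio in the last 250 nt was 0.791 in control (0.718 to 0.869), 0.872 in siStar-PAP (0.815 to 0.933) and 0.910 in siRBM10 (0.850 to 0.974). In the last 100 nt it was 0.752 (0.645 to 0.877), 0.873 (0.776 to 0.983) and 0.863 (0.762 to 0.977). The shortfall of the depletion lists was smaller with this weighting and that of control was not, all intervals lay below 1, and in siStar-PAP the last 100 nt no longer stood below the last 250 nt.

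A dip at the annotated end was also seen along the genome, where positions beyond the transcript serve as a second comparison. At 4685 canonical ends with at least 1000 nt of UTR in the last exon and no other gene within 1000 bp downstream, the last 250 bp of the transcript held 17.5 control summits per 1000 ends (95% Poisson interval 13.9 to 21.7), against 26.3 (21.8 to 31.3) in the 250 bp past the end. In siStar-PAP these were 29.2 (24.6 to 34.6) and 36.5 (31.2 to 42.4), and in siRBM10 24.5 (20.3 to 29.5) and 27.1 (22.6 to 32.3). The intervals of these neighbouring zones stayed apart in control, by a narrow margin, and overlapped in siStar-PAP and siRBM10. Between 751 and 1000 bp past the end there were still 30.7, 40.3 and 38.0 summits per 1000 ends, so DNA beyond the annotated mRNA carried as many summits as, or more than, the last part of the UTR. In siStar-PAP and siRBM10 the density inside the transcript rose away from the end, to 47.8 and 42.3 per 1000 ends in the bin that starts at −999 bp, while control stood at 23.3 there.

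**Figure D2:**
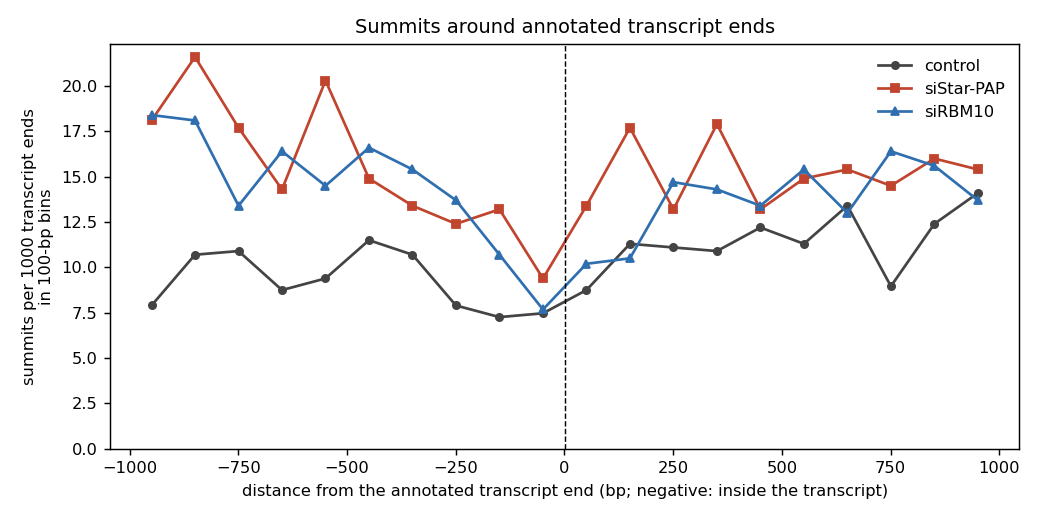
Summits per 1000 annotated transcript ends (y axis) in 100-bp bins by distance from the end (x axis, bp, negative inside the transcript) over 4685 ends, for each list. The lines dip next to the end, to 7.47 in control, 9.39 in siStar-PAP and 7.68 in siRBM10 in the last 100 bp, and stay well above 0 past it.

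At the other border of the UTR, summits were slightly more frequent next to the stop codon than over the same UTRs. Within 250 nt of the end of the coding sequence lay 13.5% of control summits (12.4 to 14.6) against 12.5% of positions, 16.7% of siStar-PAP summits (15.8 to 17.6) against 15.2%, and 17.4% of siRBM10 summits (16.5 to 18.3) against 15.3%. The interval reached down to the share of positions in control and not in the depletion lists. In the first 100 nt the ratios were 1.13, 1.16 and 1.26. With the weighting by GC content the ratios over 250 nt were 1.08 (0.999 to 1.17), 1.01 (0.956 to 1.06) and 1.04 (0.987 to 1.10), and over 100 nt 1.15 (1.01 to 1.3), 0.996 (0.916 to 1.08) and 1.08 (0.999 to 1.18). The weighting thus lowered the ratios of the depletion lists, whose intervals then held 1, and left those of control nearly as they were.

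Along the whole UTR the summits leaned towards its start in the depletion lists. The last 10% of the UTR held 8.07% of control, 6.79% of siStar-PAP and 6.22% of siRBM10 summits (ratios to the positions of the same UTRs 0.807, 0.688 and 0.634). The first 10% held 10.8%, 11.5% and 12.8% (ratios 1.08, 1.15 and 1.27). The median summit stood at 48.9%, 46.2% and 45.1% of the UTR from its start.

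PA signals were not more common around the summits than over the same UTRs. A signal, searched as AATAAA or ATTAAA on the mRNA strand, lay within 50 nt of 16.0% of control summits (14.8 to 17.2) against 17.3% of positions. In siStar-PAP it lay near 8.30% (7.67 to 8.98) against 12%, and in siRBM10 near 7.48% (6.86 to 8.15) against 11.9%. Signals were thus scarcer than over the same UTRs in every list. The reverse complements, TTTATT or TTTAAT, which are no PA signal on this strand, gave 15.9% against 19.1%, 8.68% against 12% and 7.81% against 12.1%, so the reverse complement was scarcer as well. Among the summits in the last 250 nt a signal lay near 35.4% (30.7 to 40.3) in control against 34.9% of the positions there, near 22.3% (19.5 to 25.4) in siStar-PAP against 28.6%, and near 16.8% (14.2 to 19.7) in siRBM10 against 27.0%. The genes themselves mostly carried a signal at their end. It lay in the last 50 nt of the canonical transcript in 84.2% of genes with a control summit, 82.2% with a siStar-PAP summit and 82.8% with a siRBM10 summit, beside 78% of all 18738 genes.

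Runs of U, part of the sequence downstream of PA sites, were likewise not more common. TTTTTT lay within 50 nt of 12.8%, 8.5% and 6.69% of summits against 13.7%, 10.2% and 10.1% of positions. AAAAAA lay near 9.61%, 7.14% and 5.71% against 10.1%, 7.66% and 7.36%. The 101 nt around the summits had a mean GC of 41.4%, 49.5% and 50.0%, against 39.0%, 46.5% and 46.6% for the same UTRs. The part of GC content in the counts of PA signals and of these runs was not tested. GGGGGG lay near 1.09%, 1.95% and 2.35% against 0.963%, 2.04% and 2.13%. Long CA runs were rare around the members. A stretch of 10 letters of alternating CA or AC, a motif chosen after the data were seen, longer than the runs printed for ALG12 and MLYCD and counted without the IGF2 site, lay near 0.582% of control (0.385 to 0.880), 0.308% of siStar-PAP (0.202 to 0.471) and 0.342% of siRBM10 summits (0.226 to 0.518), against 0.335%, 0.299% and 0.294% of positions. In control it lay near 0.683% (0.421 to 1.11) against 0.310% at the commonest score or below, near 0.418% (0.192 to 0.909) against 0.378% above it, and near 1 of 22 summits at a score of 5 or more.

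The lists differed in which UTRs held summits, and the difference followed the GC content of the UTRs. In UTRs with a mean GC under 35% there were 14.6 control, 6.11 siStar-PAP and 5.90 siRBM10 summits per 100 kb. From 40% to 45% these were 8.85, 18.4 and 17.9. At 55% or more they were 3.99, 34.9 and 33.9. The number of siStar-PAP summits for each control summit accordingly ran from 0.417 in the lowest class to 8.74 in the highest, and that of siRBM10 from 0.403 to 8.48. Over the range of GC content the density thus fell in control and rose in both depletion lists. Genes with a summit in control alone had a median UTR GC of 35.9%, those in both depletion lists and not in control 48.7%, and those in all the lists 41.3%.

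The GC of the sequence right around the summit gave another picture for control. By the GC of the 101 nt around a position, control density in 3′-UTRs ranged from 78.7 to 118 per Mb with no steady rise or fall. In siStar-PAP it rose from 59.2 per Mb under 30% GC to 443 per Mb at 60% or more, and in siRBM10 from 38.4 to 392. Over all autosomes the density rose as well, from 43.2 to 352 per Mb in siStar-PAP and from 27.5 to 224 in siRBM10, so the rise was not particular to UTRs. Within each GC class the 3′-UTR density was 1.26 to 1.61 times the autosomal density in siStar-PAP, 1.40 to 1.75 times in siRBM10 and 0.599 to 0.761 times in control. Set against the number that autosomal densities at matched GC would give, a comparison also chosen after the data were seen, members numbered 0.714 times in control (95% Poisson interval 0.692 to 0.737), 1.44 times in siStar-PAP (1.40 to 1.47) and 1.58 times in siRBM10 (1.54 to 1.62), beside 0.715, 1.62 and 1.70 without matching. The higher density of the depletion lists in 3′-UTRs thus remained with GC matched.

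Within the control list the GC content differed by score. Around control summits at the commonest score it averaged 37.4%, above that score 47.8%, and at a score of 4 or more 53.9%. In siStar-PAP and siRBM10 the summits at the commonest score also had the lowest averages, 38.7% and 40.9%, against 50.9% and 51.9% below that score. Control summits above the commonest score had ratios of 0.693 within 250 nt of the end and 1.23 within 250 nt of the stop codon, against 0.865 and 0.976 at the commonest score. At a score of 4 or more the ratios were 0.776 and 1.03. Read depth, the IgG library and the depletion cannot be told apart as sources of these differences with 1 library each.

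**Figure D3:**
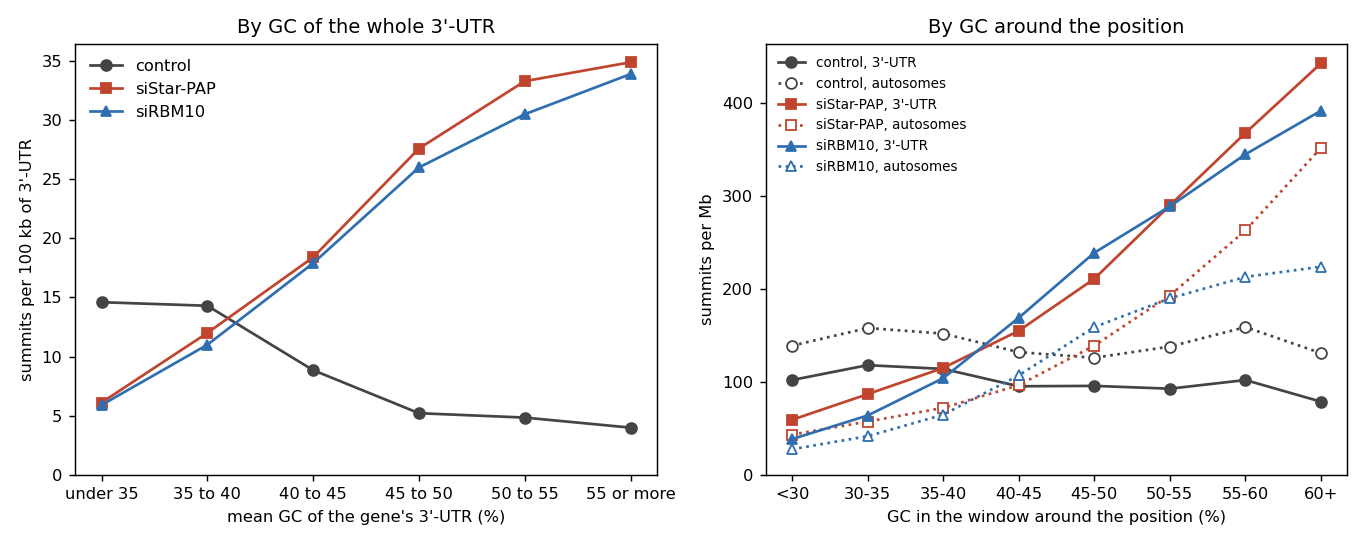
Density of summits by GC content for each list: left, per 100 kb of 3′-UTR by mean GC of the gene's UTR, right, per Mb by GC of the 101 nt around the position, in 3′-UTRs (filled, solid) and over all autosomes (open, dotted). The control line falls from 14.6 to 3.99 on the left where the siStar-PAP and siRBM10 lines climb to 34.9 and 33.9, and on the right the control UTR line stays between 78.7 and 118.

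The chromosomes repeated this contrast. Control density in 3′-UTRs was highest on chromosome 13, with 148 per Mb, where siStar-PAP and siRBM10 were lowest, with 79.3 and 70.3. Control was lowest on chromosome 22, with 47.7 per Mb, where siStar-PAP was highest, with 347, and siRBM10 stood at 280. The mean UTR GC was 37.9% on chromosome 13 and 50.8% on chromosome 22. On chromosome 19, rich in zinc-finger genes, the densities were 96.8, 341 and 306.

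The share of genes with a summit rose with UTR length, and the lists differed in how density changed with length. Of genes with a UTR up to 500 nt, 2.99% had a control, 7.48% a siStar-PAP and 6.75% a siRBM10 summit. Of those over 4000 nt it was 48.8%, 60.8% and 60.1%. Per 100 kb of UTR the control density rose over the length classes from 7.69 to 11.7, while siStar-PAP went from 18.9 to 17.1 and siRBM10 from 16.8 to 16.0. UTRs over 4000 nt held 43.8% of control, 35.8% of siStar-PAP and 35% of siRBM10 summits, beside 37.7% of UTR bases. The median UTR of a control summit was 3547 nt, beside 2984 nt in siStar-PAP, 2911 nt in siRBM10 and 3081 nt over all UTR bases. Length also differed by GC content. The median length was 1145 nt below 35% GC, 1743 nt from 35% to 40% and 1393 nt from 40% to 45%, and it fell from there to 560 nt at 55% or more. Length and GC were thus related, though not steadily over the whole range, and their parts were not tested.

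**Figure D4:**
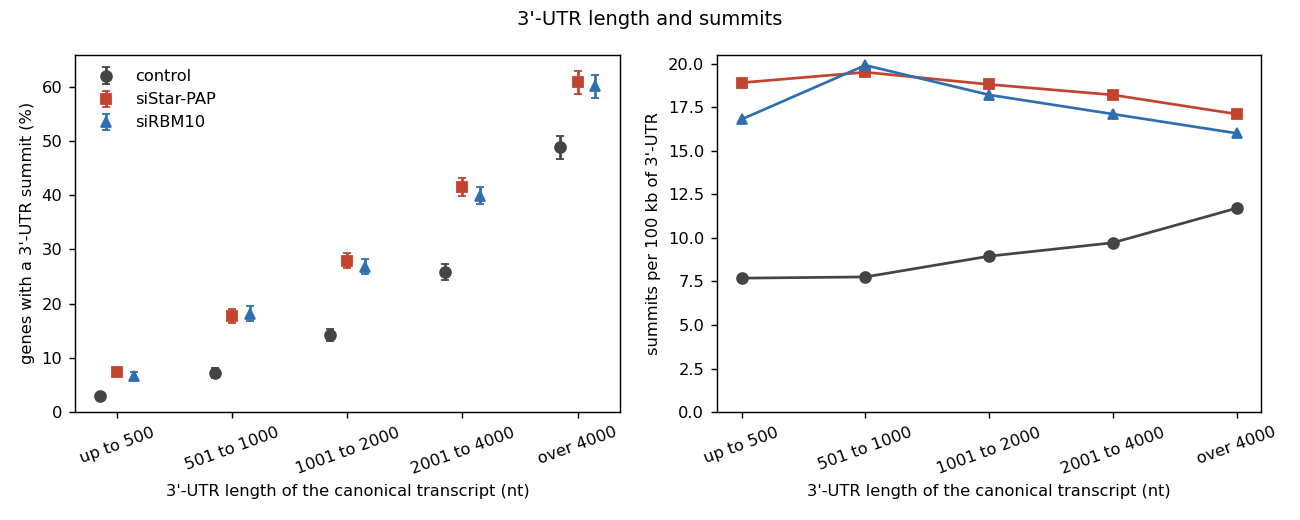
Share of genes with a 3′-UTR summit (left, %, with 95% Wilson intervals) and summits per 100 kb of 3′-UTR (right) by length of the canonical 3′-UTR in nt, for each list. The share of genes rises with length in every list, from 2.99% to 48.8% in control, while the density rises from 7.69 to 11.7 in control and does not rise steadily in the others.

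A minority of the genes with a summit had several, counted over the UTRs of all transcripts of the gene. The canonical UTRs of these genes were long, though they need not hold all the summits counted. Genes with at least 2 summits numbered 648 of 2883 in control (22.5%, 21.0 to 24.0), 1326 of 4790 in siStar-PAP (27.7%, 26.4 to 29) and 1208 of 4644 in siRBM10 (26.0%, 24.8 to 27.3). At p at most 0.01 the control share fell to 8.82% while the others were 24.2% and 23.1%. The median canonical UTR of such genes was 4893, 3792 and 3771 nt, against 2547, 1917 and 1973 nt for genes with 1 summit. Neighbouring summits of a gene lay a median of 1963 bp apart in control, 1291 bp in siStar-PAP and 1257 bp in siRBM10, and 1.0%, 8.05% and 13.4% of the neighbours lay within 500 bp.

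SMAD2, which encodes a transducer of TGF-β signals, had the most summits over the lists, with 6 in control, 8 in siStar-PAP and 5 in siRBM10 along a UTR of 32873 nt. PEX26, a peroxisome assembly factor, had 0, 12 and 5 along 17324 nt, so the gene with the most siStar-PAP summits had none in control. VPS53, a subunit of a Golgi tethering complex, had 1, 10 and 6, spread over UTRs of different transcripts. ZBTB20, a zinc-finger transcription factor, went the other way with 9, 4 and 3, the highest control count. All but 1 siStar-PAP summit of ZBTB20 lay along a UTR of 24508 nt. CWC27, a spliceosome-associated protein, also had more in control, with 6, 5 and 3. GC content was 37.5% in the UTR of ZBTB20 and 36.3% in that of CWC27, against 39.8% in SMAD2, 46.5% in PEX26 and 47.3% in VPS53. SOGA1 had 0, 8 and 7 summits, MDGA1, a membrane-anchored neuronal protein, 0, 5 and 7, and MLLT6 1, 4 and 8, with UTR GC of 51.8%, 54.5% and 53.7%. The zinc-finger gene ZNF8 had 1, 7 and 6, and KCNC4, a voltage-gated potassium channel, had 3, 8 and 3. In CWC27 and KCNC4 most of the UTR bases belong to transcripts other than the canonical, whose UTRs are 432 and 1075 nt.

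By gene, the lists overlapped in part. A 3′-UTR summit in all the lists was found in 673 genes (3.59% of all genes with a 3′-UTR). It was found in control alone in 1265 (6.75%), in siStar-PAP alone in 1890 (10.1%) and in siRBM10 alone in 1807 (9.64%). In both depletions without control it was found in 1781 (9.50%). Genes with a summit in control and none in siStar-PAP numbered 1718 (9.17%), and those with the reverse pattern 3671 (19.6%). For siRBM10 these were 1784 (9.52%) and 3588 (19.1%). Which count of a pair is larger follows from the gene totals of the lists, so it adds nothing to them.

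By position, the overlap of control with the depletion lists was close to that of the UTRs as a whole. A siStar-PAP summit lay within 500 bp of 15.6% of control summits (14.5 to 16.8), against 14.7% of the positions in the same UTRs. A siRBM10 summit lay within 500 bp of 13.3% (12.3 to 14.4) against 12.7%. Both intervals held the share of positions. With p at most 0.01 in both lists they lay above it, at 20.5% (18.4 to 22.7) against 17.4% for siStar-PAP and 18.1% (16.1 to 20.3) against 15.8% for siRBM10. At closer range the share was above it, with 4.37% (3.76 to 5.07) against 2.98% within 100 bp for siStar-PAP and 3.23% (2.71 to 3.84) against 2.58% for siRBM10. The very same position was shared by 24 control summits with siStar-PAP and by 10 with siRBM10, which is 0.635% (0.427 to 0.944) against 0.0146% of positions and 0.265% (0.144 to 0.487) against 0.0128%. Between the depletion lists, a siRBM10 summit lay within 500 bp of 27.6% of siStar-PAP summits (26.6 to 28.7) against 25.2% of positions, within 100 bp of 7.93% (7.31 to 8.60) against 5.55%, and at the same position for 0.529% (0.382 to 0.731) against 0.0274%. The ratios to the same UTRs were 1.10, 1.43 and 19.3, beside 1.06, 1.47 and 43.4 for control with siStar-PAP. All lists were called against the same IgG library, so shared positions are not independent of it.

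Sites with a summit of all the lists within 500 bp of the control summit numbered 148, in 146 genes, of the 3827 control members, and their summits spread over a median of 368 bp. Of the control summits used for overlap, 3.89% (3.32 to 4.56) had both other lists within 500 bp, against 3.19% of the positions in the same UTRs. The neighbouring summits counted here and in the overlap shares were those of the whole lists, and some lay outside the 3′-UTR. At IGF2, a fetal growth factor, the summits at positions 2152925 (control), 2153028 (siStar-PAP) and 2152889 (siRBM10) of chromosome 11 had scores of 8.88, 12 and 15.2 and lay within 139 bp, in the CA-rich sequence shown above. They stand 2578, 2681 and 2542 nt before the annotated end. The site also lies in the UTR of another annotated gene without a symbol, so it was left out of the distance and overlap shares. At TIGAR, a fructose bisphosphatase induced by p53, the summits lay within 6 bp with scores of 3.36, 4.70 and 5.2, and 6182 nt before the end. At PSMD12, a subunit of the proteasome lid, they lay within 63 bp with scores of 4.53, 4.70 and 3.25. At ZNF283 the scores were 3.36, 4.70 and 5.2 over 317 bp, and at ZBTB7C 3.36, 7.91 and 3.25 over 917 bp. Scores of at least 3 in every list were thus reached at 5 sites, and only at ZNF283 among them was the control summit near an annotated end.

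Of the other summits of highest score, some had a summit of another list close by and some had none. In control the highest was in ALG12, a mannosyltransferase of N-glycan assembly, with 25.7, where siStar-PAP had a summit 31 bp away with 1.5 and siRBM10 298 bp away with 1.62. MLYCD, malonyl-CoA decarboxylase, followed with 15.6, with a siRBM10 summit 186 bp away at 2.60. ZNF778 had 12.6 with a siRBM10 summit 403 bp away at 4.04. In siStar-PAP, MDM2, the E3 ligase of p53, and RPL37, a ribosomal protein, had 12.8 each, EDARADD 10.6 and the dynein subunit gene DYNC1LI2 9.45. The nearest control summit was 149 bp from that of RPL37, with a score of 1.33, and over 2000 bp from the other siStar-PAP summits just named. In siRBM10, CEBPG, a bZIP transcription factor, had 12.3 at the same position as a siStar-PAP summit of 7.04, TXNL4A had 9.45, LPCAT1 9.40 and SAMD4A 8.72. Their distances to the annotated end ran from 2007 nt in ALG12 to 7663 nt in MLYCD among the control summits named here, from 1735 to 2681 nt in siStar-PAP and from 1175 to 3145 nt in siRBM10, so none of these summits lay in the last 1000 nt of its transcript.

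Among 18 genes that were studied as UTR-associated Star-PAP targets, 7 had a 3′-UTR summit in control, 4 in siStar-PAP and 6 in siRBM10, and 11 had a summit in any list, beside 15.5%, 26.0%, 25.2% and 44.8% of all genes. Their UTRs sum to 63.6 kb, over which the densities of all UTRs would place 6.49, 11.7 and 11.1 summits, and 8, 5 and 8 were found. Numbers placed in this way, here and for the lists below, go by UTR length and not by GC content, with which the densities changed. UTR GC in this list ran from 30.2% in WIF1 to 60.2% in IGF2, and its part in these counts was not tested. The study drew on these libraries and on an earlier knockdown microarray, and some genes of the list were targets known before. The control count of the list is therefore not independent evidence. A control summit and none in siStar-PAP was found in 5 of the 18 genes, beside 9.17% of all genes. KCNMA1, a calcium-activated potassium channel, had 2 control summits with scores of 2.28 and 1.33 and none in the other lists. HMOX1, heme oxygenase of the stress response, had 1 control summit of 3.57, 447 nt before the end of a 612-nt UTR. RRAS2, a small GTPase that the study also names among CDS-associated mRNAs, as it does RGS4 of this list, and STC1, a secreted hormone, had 1 control summit each at 1.33. The fifth was PTBP2, a splicing regulator, with a control summit of 1.33 and a siRBM10 summit of 3.25 on UTRs of different length.

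Other genes of this list had their summits in the depletion lists. NQO1, a quinone reductase, had 2 siStar-PAP summits of 4.70 and 2.49 and 2 siRBM10 summits of 3.25 and 4.48, and none in control. CAMK2B had siStar-PAP and siRBM10 summits of 2.26 and 1.72, COL5A1 and FEZ1 had siRBM10 summits of 4.08 and 2.77, and WIF1, a secreted Wnt inhibitor, had a control summit of 1.3 and a siStar-PAP summit of 2.64. BIK, a pro-apoptotic protein, had none in any list along 410 nt. With another assay, quantitative RNA immunoprecipitation, the study reported Star-PAP on NQO1, COL5A1, FEZ1 and BIK, and its loss on Star-PAP knockdown. Of the control summits in this list, the one nearest an annotated end was in KCNMA1, 74 nt before the end of a 374-nt UTR. That UTR belongs to a transcript other than the canonical, whose UTR is 2387 nt. On canonical UTRs the nearest was in RRAS2, 251 nt before the end.

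**Figure D5:**
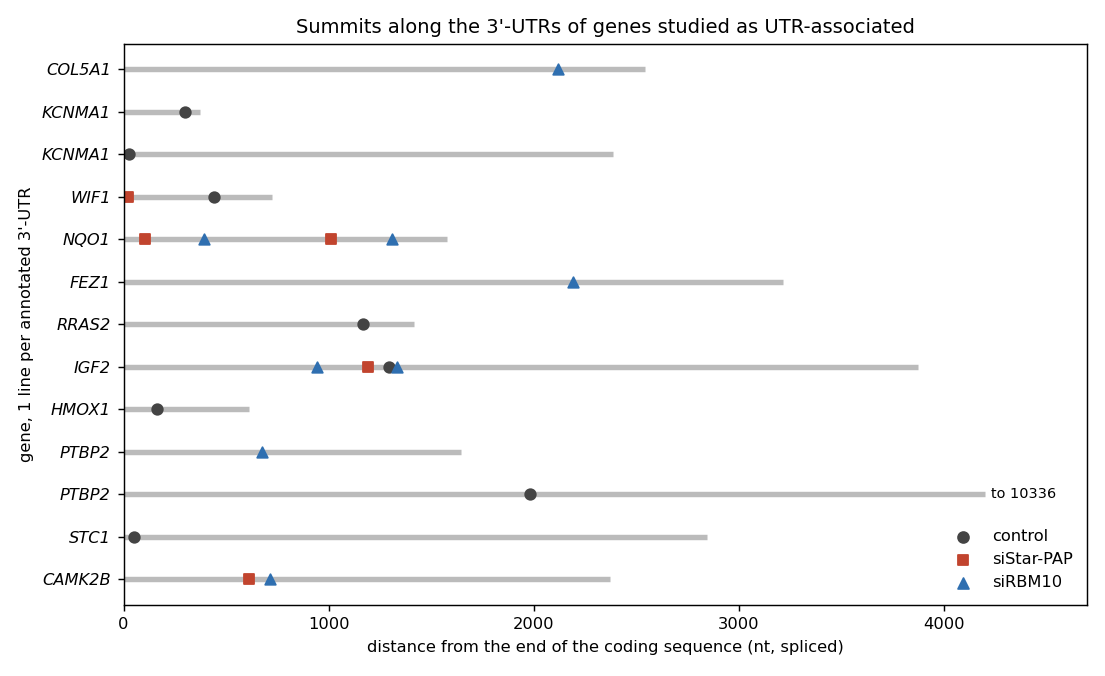
Summits of each list along the annotated 3′-UTRs of the 11 genes of the UTR-associated list that had any, by distance from the end of the coding sequence in nt (x axis), with a grey line for each UTR that held a summit. Control summits (circles) lie on KCNMA1, WIF1, RRAS2, IGF2, HMOX1, PTBP2 and STC1, and only those of IGF2 sit close to summits of both other lists.

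The other gene lists gave similarly mixed counts. Of 15 autosomal genes studied as CDS-associated, 3 had a 3′-UTR summit in control, 5 in siStar-PAP and 4 in siRBM10, beside 15.5%, 26.0% and 25.2% of all genes. Their 4, 5 and 5 summits stand beside 4.46, 8.07 and 7.64 placed by length. CTSO, a lysosomal protease, had 2 control summits and 1 of siStar-PAP. COQ2, of ubiquinone synthesis, had a control summit at 1.33, 2 nt before the end of a transcript other than the canonical. Of 21 genes for the 3′-end processing machinery, 5 had a summit in control, 9 in siStar-PAP and 4 in siRBM10, beside the same shares of all genes. None had a summit in all the lists, beside 3.59% of all genes. The 8, 13 and 5 summits of these 21 genes stand beside 6.25, 11.3 and 10.7 placed by UTR length at the density of each list. CPSF2 and CSTF1, subunits of the cleavage factors CPSF and CstF, had 2 control summits each and no others, and so had PAPOLA, the canonical nuclear poly(A) polymerase. NUDT21, CPSF6 and CPSF7, the subunits of cleavage factor I, had 2 siStar-PAP summits each and none in control. TUT1, the Star-PAP gene itself, had no summit in its 45-nt UTR in any list.

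Abundant mRNAs were a check on whether summits go with plentiful RNA. Of 20 such genes, 3 had a summit in control, 6 in siStar-PAP and 7 in siRBM10, beside 15.5%, 26.0% and 25.2% of all genes, with 10.6, 31.8 and 35.3 summits per 100 kb of UTR beside 10.2, 18.4 and 17.4 over all UTRs. The genes with a control summit were YWHAZ with 1, 1 and 1, LDHA with 1, 0 and 0, and HNRNPK with 1, 0 and 2. ACTB had 0, 1 and 2 summits, EEF1A1, a translation elongation factor, 0, 3 and 1, and HNRNPA2B1 0, 2 and 2, while GAPDH had none. Of 20 genes restricted to other tissues, none had a summit in control, where 1.26 summits would be placed by length. GFAP, an astrocyte filament protein, had 3 in siStar-PAP, with scores from 1.46 to 1.65, and 2 in siRBM10, with scores of 3.09 and 4.68. Expression of these tissue-restricted genes in the cells was not analysed here. Of 13 replication-dependent histone genes, whose mRNAs end in a stem-loop without a poly(A) tail, H3C3 had 1 siRBM10 summit 9 nt before its end, and the others had none. Their UTRs sum to 2.50 kb, over which at most 0.461 summits would be placed, so absence was not informative there.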

How the data were processed

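The 3 peak lists deposited by the authors hold 1-bp summits with the −log10 p-value of MACS2, 1 list per library. Per the labels and the methods of the study, reads were checked with FastQC 0.72, trimmed with cutadapt 1.14, mapped to hg19 with BWA 0.7.12, restricted to unique alignments of at least 18 nt and called against IgG. The list of the IgG library was not used here. Coordinates were matched to GENCODE release 44 mapped to GRCh37, whose chromosomes 1 to 22 equal those of hg19. For each base the canonical transcript was used where it held the base, otherwise the longest 3′-UTR. Shares were compared with the exact share over all bases of the same UTRs, so nothing was drawn at random, and a version weighted by GC content was chosen after the data were seen. Wilson and Poisson intervals at 95% were used. Named genes were those of 6 lists, the 10 with most summits, the 5 highest scores per library and the 5 sites of all libraries with the highest lowest score. Some genes that these rules name are not reported here. Members and lists were chosen with earlier results of these data known. Computations used Python 3.11.15, numpy 2.4.6, pandas 2.3.3 and scipy 1.17.1, tested on simulated summits, of which 3 of 3 steps were recovered. Alternatives are given in the closing section.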

Additional observations from a re-analysis of the deposited data

How the results depend on the processing

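No alternative reversed the side of the same-UTR share that a result lay on with its interval, though some intervals came to hold that share. With p at most 0.01, the 3′-UTR share was 2.07% in siStar-PAP and 2.16% in siRBM10, the share within 250 nt of the transcript end 9.55% in siStar-PAP, the share within 250 nt of the stop codon 15.9%, 15.5% and 16.4% in control, siStar-PAP and siRBM10, control summits shared within 500 bp 20.5% with siStar-PAP and 18.1% with siRBM10, and genes with several summits 8.82%, 24.2% and 23.1%. On canonical transcripts only, the 3′-UTR shares were 0.837%, 1.98% and 2.07% of summits against 1.19% of bases. With summits moved 250 nt upstream, the 3′-UTR shares were 2.17% and 2.24% in the depletion lists, the end shares 12.5% and 12.2% in control and siStar-PAP, and the stop codon shares 12.4% and 15.9% in control and siRBM10. In zones of 100 nt the end shares were 4.13%, 3.89% and 3.73% and the stop codon shares 6.03%, 7.53% and 8.23%. To the nearest end of any transcript the end shares were 15.4%, 17.3% and 18%. On the transcript with the longest UTR the stop codon shares were 15.7% and 16.4% in siStar-PAP and siRBM10. Sharing within 100 bp was 4.37% and 3.23%, at the same position 0.635% and 0.265%. With neighbours within 500 bp counted as 1, genes with several summits were 26.2% and 23.7% in the depletion lists. The causes were not tested, beyond smaller zones and distances holding fewer summits by construction. No paired analysis was possible because each condition had 1 library. The lists give no reads per site, so a missing summit does not show absence of RNA or of binding.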
